A study of Mus musculus with 11 samples.

Results

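Ion channel genes were examined in sorted epithelial cells of the pubertal mouse mammary gland. The members are the genes whose mouse symbol begins with Kcn (potassium channels and their subunits), Cacna, Cacnb or Cacng (calcium channel subunits), Scn and a number (sodium channels), Trpa, Trpc, Trpm or Trpv and a number (TRP channels), Clca or Fxyd and a number (channel and pump regulators), or is Piezo1 or Piezo2 (stretch-gated channels). They number 179 of the 27179 gene identifiers counted. The symbol rule also took in 6 noncoding, antisense or pseudogene entries, which encode no channel, and 2 of these were tested. All samples came from female C57BL/6 mice aged 5 weeks that carried the E-cadherin-GFP reporter. Terminal end buds (TEBs, the growing tips) and ducts (the tubes behind them) were microdissected under GFP fluorescence, and Lin-CD29+CD24+ cells were sorted into a luminal fraction with bright GFP and a basal fraction with dim GFP. The groups were 3 libraries of basal duct, 3 of basal TEB, 2 of luminal duct (replicates 1 and 3) and 3 of luminal TEB, each from at least 2 pooled mice. The luminal gate separates neither progenitor from mature luminal cells, and all groups share the reporter allele.

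Ion channels set the membrane potential, the entry of calcium and the movement of salt and water across an epithelium. Voltage-gated channels open on depolarization, PIEZO and some TRP and two-pore potassium channels respond to membrane stretch, and calcium-activated potassium channels open when calcium rises inside the cell. In the mammary gland the basal cells are contractile myoepithelium, a type that resembles smooth muscle, while luminal cells line the lumen and later transport the ions of milk. FXYD proteins are small single-span partners of the sodium-potassium pump. CLCA proteins are secreted or membrane-bound proteins that modulate chloride conductance and are not pores themselves.

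Totals ran from 27989137 to 49221436 counts per library, and the members took 0.0923% to 0.271% of them. The share of mitochondrial genes ran from 4.34% to 37.5%, and the highest were basal TEB replicate 1 (37.5%) and luminal duct replicate 3 (28.5%). In basal TEB replicate 1 only 65 members had a count, against 75 to 133 in the other libraries. The labels held against the markers: the summed level of 7 basal markers was 15553 to 19176 CPM (counts scaled to library size) in basal duct, 5342 to 8297 in basal TEB, 93.0 and 248 in luminal duct and 14.7 to 27.3 in luminal TEB. The sum of 9 luminal markers was 19156 and 12420 CPM in luminal duct and 12922 to 14834 in luminal TEB. It was 532 to 570 in basal duct and 339 to 395 in basal TEB. The part of luminal cells in low basal values was not tested. Of the markers of other cell types, the fibroblast list summed to 345 to 597 CPM in basal duct and 176 to 285 in basal TEB, most of it Dcn. The nerve list summed to 194 to 354 CPM in basal duct and 222 to 308 in basal TEB, most of it Sox10. Luminal duct replicate 3 stood apart, with 176 CPM of immune markers against 11.6 in replicate 1, 135 against 5.99 of fibroblast, 26.2 against 1.02 of endothelial and 75.1 against 0 of adipocyte markers. Basal duct replicate 2 stood apart from replicates 1 and 3 as well, with 175 CPM of endothelial markers against 8.48 and 16.3, 187 of adipocyte markers against 4.07 and 11.5 and 124 of immune markers against 40.7 and 30.1.

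Of the 179 members, 162 had a count in some library and 124 passed the filter on low counts and were tested. The other 55 averaged at most 1.27 CPM in any group. Members above 10 CPM on average numbered 30 in basal duct, 22 in basal TEB, 24 in luminal duct and 23 in luminal TEB. The summed CPM of all members was 2429 to 2737 in basal duct, the highest of the 4 groups, 1215 to 1490 in basal TEB, 1725 and 1960 in luminal duct and 1444 to 1558 in luminal TEB. Much of the gap between the basal groups lay in few genes. Clca3a1 and Clca3a2 together held 593 to 769 CPM in basal duct and 21.4 to 58.4 in basal TEB, and Scn7a, given below, was also far lower in basal TEB. These are bulk samples, so fewer cells of a type and less RNA per cell cannot be told apart.

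Per length of transcript, as RPKM (counts scaled by transcript length and library size), Fxyd3 had the highest level of all members in every group. Its mean was 267 RPKM in basal duct, 112 in basal TEB, 191 in luminal duct and 113 in luminal TEB. Clca3a2 was next in basal duct at 128 RPKM and in luminal TEB at 49.0, Kcnk1 in basal TEB at 34.4, and Fxyd2 in luminal duct at 161. The remaining leaders were Clca3a1 (79.9) and Scn7a (38.7) in basal duct and Trpc6 (31.7) in luminal TEB. Trpc4ap, Kcnk1, Trpm4 and Trpm7 were at moderate level in all groups. Trpc4ap encodes a TRPC4-associated protein and no pore, and its level was 34.2 to 48.5 RPKM. Kcnk1, a two-pore potassium channel, lay at 27.2 to 45.2 RPKM, and Trpm7, a magnesium-permeable channel fused to a kinase, at 15.6 to 20.7. Trpm4, a calcium-activated channel for monovalent cations, lay at 14.2 to 21.6 RPKM. None of the last 3 differed between cell types or structures past the threshold, whereas Trpc4ap was higher in luminal than in basal TEB cells by 0.51 on the log2 scale (edgeR FDR = 0.0245), a call lost without basal TEB replicate 1 or 3 or any luminal TEB library (edgeR FDR = 0.0653 to 0.0929).

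**Figure D1:**
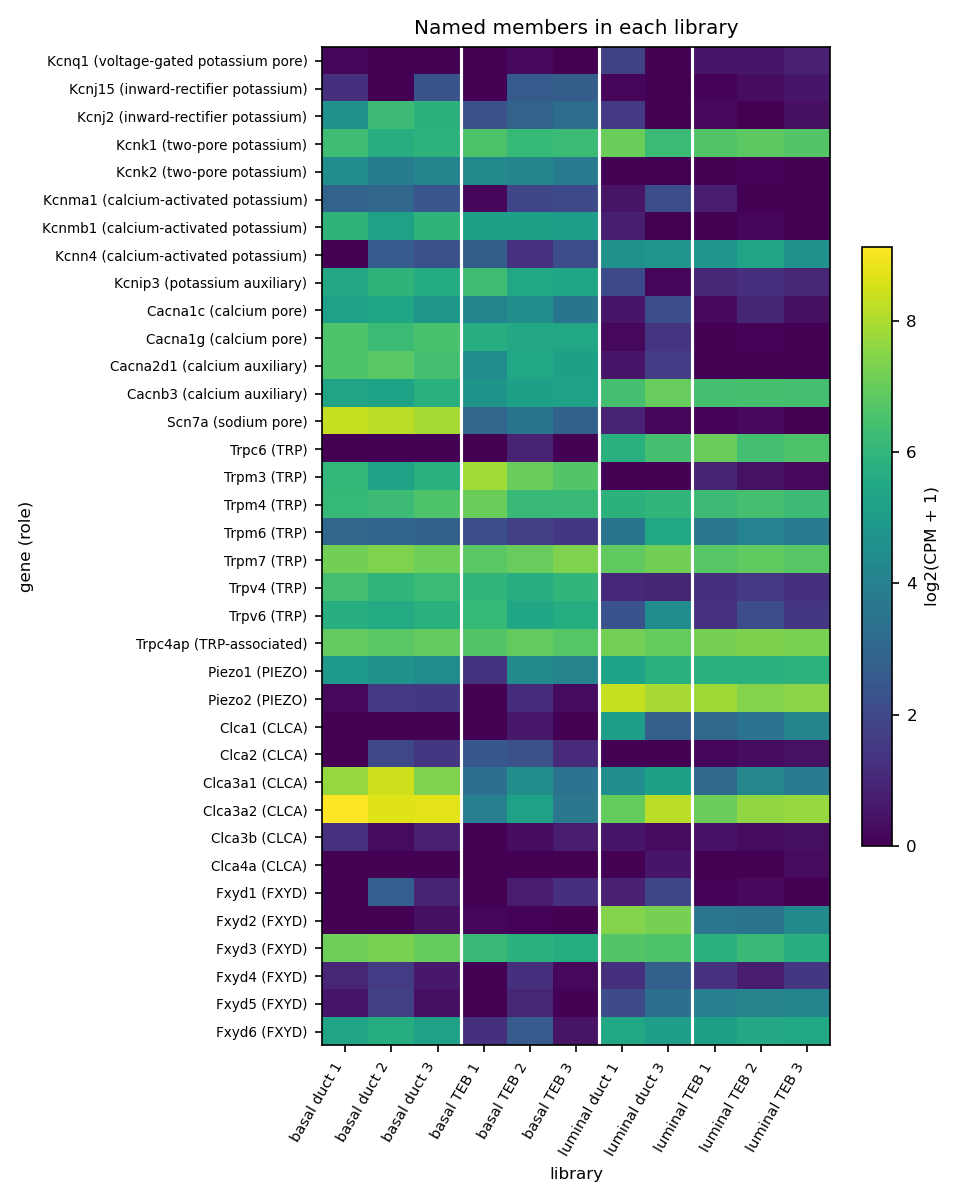
Level of the 36 named members that were tested, as log2(CPM + 1), in each of the 11 libraries, with genes in rows grouped by role and white lines between the groups of libraries. Scn7a, Clca3a1 and Clca3a2 are bright in the 3 basal duct libraries, and Piezo2 and Trpc6 only in the 5 luminal libraries.

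The first question was which channel genes distinguish basal from luminal cells. The test was the quasi-likelihood one of edgeR in a single model over all genes, with the Benjamini-Hochberg adjusted p given as FDR. Log2 differences and their SE come from that model, and folds are ratios of group mean CPM. At an FDR below 0.05, 35 of the 124 tested members differed between basal and luminal cells in ducts, 23 of them higher in basal cells and 12 higher in luminal cells, where 22.3% of all genes tested were called, 12.6% higher and 9.71% lower in basal cells. In TEBs 42 differed, 24 higher in basal and 18 higher in luminal cells, against 25.1% of all genes, 13.2% higher and 11.8% lower in basal cells. Of the 24, 1 is a noncoding RNA and no channel gene. The median basal minus luminal log2 fold change of the members was 1.26 in ducts and 0.83 in TEBs, against 0.08 and 0.04 over all genes. These medians depended on single libraries. With 1 library left out, the median in ducts ran from 0.86 (without basal duct replicate 3) to 2.78 and 2.49 (without luminal duct replicate 1 and 3). In TEBs it was -0.013 without basal TEB replicate 2, 0.36 without basal TEB replicate 3 and 0.26 without basal duct replicate 3, so its direction was not stable. Over the 74 members with a mean of at least 1 CPM the medians were 0.71 and 0.24. Libraries of the cell types did not overlap for 39 members higher and 21 lower in basal duct, against 24.8% and 21.2% of all genes (46.0% in either direction), and for 28 and 35 in TEBs, against 22.6% and 27.2% (49.8%). The medians of the members fell to 1.20 and 0.37 when genes with no count in a group were set at the bound that 3 counts allow.

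Both comparisons called 20 members higher in basal cells, where 8.77% of all genes were called so in both, and 10 higher in luminal cells, against 6.65%. The 20 higher in basal cells included the calcium channel subunits Cacna1c, Cacna1g, Cacna2d1, Cacnb4 and Cacng7, the sodium channel Scn7a, the potassium channel genes Kcna1, Kcna2, Kcna6, Kcnip3, Kcnj2, Kcnk2, Kcnk4, Kcnmb1, Kcnmb4 and Kcnq5, and the TRP channels Trpm3, Trpv4 and Trpv6. The luminal 10 were Cacna2d3, Cacnb3, Clca1, Fxyd2, Kcne2, Kcnj11, Kcns3, Piezo2, Trpc6 and Trpm6. Levels below are CPM in replicates 1, 2 and 3, and in replicates 1 and 3 for luminal duct.

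**Figure D2:**
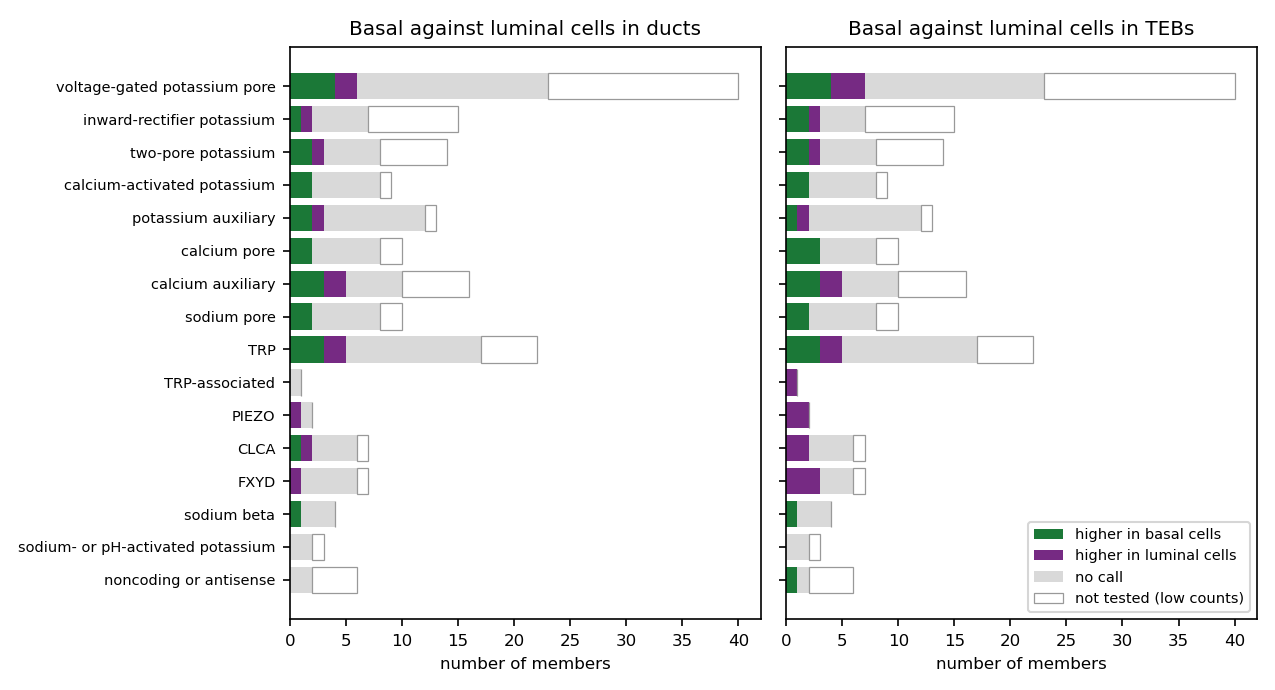
Number of members (x axis) in each role (y axis) that were higher in basal cells, higher in luminal cells, not called or not tested, in ducts (left) and TEBs (right). The calls of calcium pore genes (2 in ducts and 3 in TEBs, of 8 tested) and sodium pore genes (2 of 8 in each) are in the basal direction. Those of the 2 PIEZO genes are in the luminal direction. Of all genes, 9.71% in ducts and 11.8% in TEBs were called in the luminal direction.

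Among the potassium, calcium and sodium pore genes of the voltage-gated families, 39 of 60 were tested. Membership is by family, so the counts include Scn7a and Kcns3, whose products are described below as not opened by voltage and as no channel alone. Of the 39 tested, 8 were higher in basal and 2 in luminal cells of ducts, and 9 and 3 in TEBs. That is 25.6% and 30.8% called, near the 22.3% and 25.1% of all genes. Of 8 tested calcium pore genes, 2 were called in ducts (25.0%) and 3 in TEBs (37.5%), all higher in basal cells. Luminal calls took 9.71% and 11.8% of all genes, so their absence among 8 genes says little. Cacna1c and Cacna1g were higher in basal cells in both structures. Cacna1g encodes the T-type pore Cav3.1. Its level was 97.4, 73.5 and 89.8 CPM in basal duct, 51.1, 45.1 and 42.7 in basal TEB, 0.159 and 1.56 in luminal duct, and 0, 0.0762 and 0 in luminal TEB. The basal and luminal libraries did not overlap, and the difference was 6.76 ± 0.85 (log2, SE) in ducts (edgeR FDR = 0.000133). Cacna1c, the L-type pore Cav1.2 of smooth and heart muscle, was at 36.3, 40.2 and 27.8 CPM in basal duct, 16.3, 21.7 and 10.8 in basal TEB, 0.478 and 3.62 in luminal duct, and 0.179, 0.914 and 0.289 in luminal TEB. It was 17.0-fold higher in basal cells of ducts (edgeR FDR = 0.00653) and 35.4-fold in TEBs (edgeR FDR = 0.00055).

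The auxiliary subunits of calcium channels went both ways. Cacna2d1, an alpha2delta subunit that binds gabapentin, was at 96.1, 112 and 85.6 CPM in basal duct, 20.6, 42.8 and 35.0 in basal TEB, 0.455 and 2.14 in luminal duct, and 0, 0 and 0.0193 in luminal TEB. It was at 20.6 CPM or more in all 6 basal libraries and at 2.14 or less in the 5 luminal ones, a difference of 6.29 ± 0.67 in ducts (edgeR FDR = 3.85e-05). Cacnb3, a cytoplasmic beta subunit, was present in all libraries, with 39.7, 38.7 and 55.3 CPM in basal duct, 25.4, 34.5 and 36.9 in basal TEB, 85.3 and 127 in luminal duct and 86.6, 88.1 and 86.1 in luminal TEB. The luminal libraries all lay above the basal ones, by 2.38-fold in ducts (edgeR FDR = 0.00253) and 2.69-fold in TEBs (edgeR FDR = 0.000473). Cacnb4 was instead 9.16-fold higher in basal cells of ducts and 13.1-fold in TEBs, and lost the call in ducts without luminal duct replicate 3 (edgeR FDR = 0.085). Cacng7 had no count in the 5 luminal libraries and was at least 82.0-fold higher in basal duct and at least 308-fold in basal TEB (114-fold without basal TEB replicate 1), with 3 counts over the group as the floor. Cacna2d3 had none in basal duct and was at least 62.6-fold higher in luminal duct (6.75-fold without replicate 3 and 118-fold without replicate 1), a call lost without luminal duct replicate 3 (edgeR FDR = 0.116). Cacnb4, Cacng7 and Cacna2d3, and below Scn2b, Kcna1, Kcna2, Kcna6, Kcnq5, Kcns3, Kcnh1, Kcne2, Kcnj11, Kcnk4, Kcnk5, Kcnk16 and Kcnmb4, were chosen for naming after their values were seen.

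Sodium channel genes with a call were all higher in basal cells. Of the 8 tested pore genes 2 were called in each structure (25.0%), near the 22.3% and 25.1% of all genes. Scn7a encodes Nax, an atypical channel that responds to sodium concentration and not to voltage. Its level was 325, 287 and 239 CPM in basal duct, 7.04, 10.7 and 6.13 in basal TEB, 0.819 and 0.123 in luminal duct, and 0.0673, 0.171 and 0 in luminal TEB. All 6 basal libraries lay above the 5 luminal ones, and the difference was 9.08 ± 0.76 in ducts (edgeR FDR = 7.73e-06) and 6.58 ± 0.65 in TEBs (edgeR FDR = 1.55e-05). Of the 4 beta subunits, Scn2b was called in TEBs, at 1.62 and 0.308 CPM in basal TEB replicates 2 and 3 and more in replicate 1, against no count in luminal cells. The Scn2b call was lost without basal TEB replicate 1 (edgeR FDR = 0.105).

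Potassium pore genes gated by voltage were mostly low, and 23 of 40 were tested. Kcna1, Kcna2 and Kcna6, of the Shaker (Kv1) family, had no count in the 5 luminal libraries and averaged at most 3.94 CPM in a basal group. Kcna1 was at 9.5, 1.32 and 1 CPM in basal duct and 2.94, 2.53 and 2.16 in basal TEB. Against the floor of 3 counts it was at least 89.6-fold higher in basal duct, or 26.3-fold without basal duct replicate 1, and at least 126-fold in basal TEB. All 3 lost the call in ducts without luminal duct replicate 1 or 3 (edgeR FDR = 0.0519 to 0.132). Kcnq5, of the KCNQ family behind the M current, was at 23.1, 18.4 and 26.3 CPM in basal duct, 1.79, 14.1 and 11.1 in basal TEB, and at most 0.25 in any luminal library. Kcns3, a modulatory subunit that forms no channel by itself, was at 17.3 and 30.1 CPM in luminal duct and 26.9, 17.9 and 27.5 in luminal TEB, and at most 2.39 in a basal library, and its call in ducts was lost without luminal duct replicate 3 (edgeR FDR = 0.0632). Kcnh1 (Eag1) was at 23.5, 34.6 and 36.1 CPM in basal duct, 0, 10.2 and 4.48 in basal TEB, 9.90 and 32.9 in luminal duct, and 29.2, 55.6 and 32.7 in luminal TEB. It was 8.02-fold higher in luminal cells of TEBs (edgeR FDR = 0.0452, and 0.236 with the mitochondrial share as a covariate) and was not called in ducts (edgeR FDR = 0.746). Kcnq1, whose low level was 0 to 2.39 CPM, did not pass the threshold. Over all GENCODE transcripts, 3.0% of its exonic bases overlap the antisense Kcnq1ot1, and reads there cannot be told apart by strand.

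Kcnip3 (KChIP3, a calcium-binding partner of Kv4 channels that also acts on transcription) was a potassium auxiliary gene called in both structures. Its level was 44.3, 60.9 and 47.8 CPM in basal duct, 77.8, 42.3 and 41.1 in basal TEB, 3.16 and 0.0822 in luminal duct and 0.964, 1.43 and 0.982 in luminal TEB. Basal and luminal libraries did not overlap, and the difference was 4.91 ± 0.92 in ducts (edgeR FDR = 0.00216) and 5.57 ± 0.79 in TEBs (edgeR FDR = 0.000246). Kcne2, a single-span partner of several potassium channels, went the other way, with 26.3 and 5.10 CPM in luminal duct, 4.17, 0.0381 and 0.289 in luminal TEB and 1 count in all basal libraries together.

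Inward rectifiers stabilise the resting potential. Kcnj2 (Kir2.1) was at 23.9, 76.4 and 57.3 CPM in basal duct, 3.87, 6.44 and 8.37 in basal TEB, 1.91 and 0.0411 in luminal duct and 0.179, 0 and 0.308 in luminal TEB. It was 53.8-fold higher in basal cells of ducts (edgeR FDR = 0.00867) and 38.3-fold in TEBs (edgeR FDR = 0.00464). Kcnj11, the pore of the ATP-sensitive potassium channel, was low, with 8.33 and 3.87 CPM in luminal duct, 7.73, 9.01 and 10.7 in luminal TEB and at most 0.154 in a basal library (edgeR FDR = 0.00399 in ducts and 0.000781 in TEBs). Kcnj15 ranged from 0 to 5.46 CPM with no call.

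**Figure D3:**
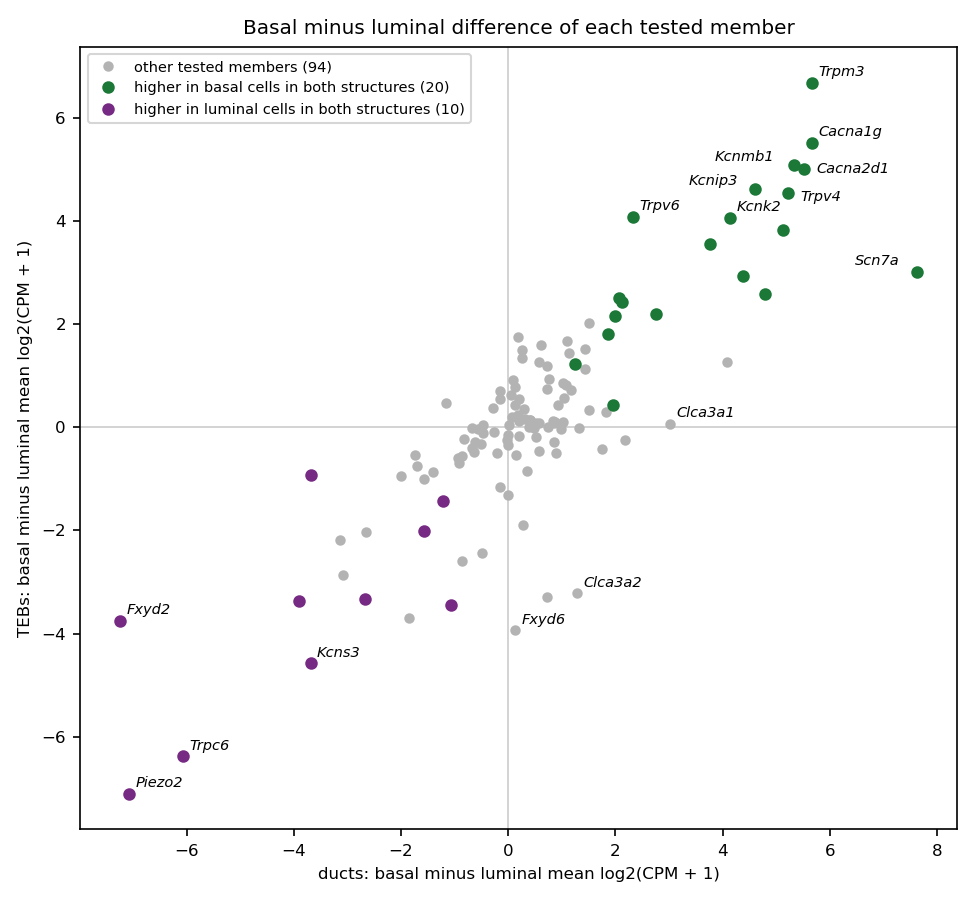
Basal minus luminal difference of each of the 124 tested members, as the difference of group means of log2(CPM + 1), in ducts (x axis) and in TEBs (y axis), with members called in both structures in green (20, basal) and purple (10, luminal). Most called members lie near the diagonal, while Scn7a, Clca3a1, Clca3a2 and Fxyd6 lie below it.

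The mechanosensitive genes were split between the cell types. Of 6 listed (Piezo1, Piezo2, Trpv4, Kcnk2, Kcnk4 and Kcnk10), Kcnk10 had no count and 5 were tested. In ducts 3 were higher in basal cells and 1 in luminal cells, and in TEBs 3 and 2. Of all genes, 22.3% were called in ducts, 12.6% higher and 9.71% lower in basal cells. In TEBs 25.1% were called, 13.2% higher and 11.8% lower. Between TEB and duct 0 of the 5 passed edgeR's threshold in either cell type. At an unadjusted p below 0.05 there were 0 in basal cells and 2 in luminal cells, Kcnk4 and Trpv4, both with higher values in TEBs. Of all genes, 8.38% were higher in luminal TEBs at this cut. Both genes were at low level in luminal cells. Kcnk4 had no count in luminal duct. Trpv4 was 1.48% and 1.23% of its basal mean in luminal duct and 2.34% to 3.15% in luminal TEB. The part of basal cells in these luminal values was not tested. The likelihood ratio test, DESeq2 and limma voom each called 0 of the 4 others than Kcnk4.

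Piezo2, a stretch-gated channel known for touch sensing in nerve endings and Merkel cells, was at 320 and 247 CPM in luminal duct and 224, 173 and 185 in luminal TEB. The basal libraries held 0.14, 1.92 and 1.80 CPM in duct and 0, 1.28 and 0.224 in TEB. No basal library came near a luminal one, and the luminal level was 221-fold higher in ducts (basal minus luminal log2 difference -7.81 ± 0.93, edgeR FDR = 8.84e-05) and 386-fold in TEBs (edgeR FDR = 4.7e-05). Piezo1, its widely expressed relative, was at 30.0, 24.5 and 20.7 CPM in basal duct, 1.5, 19.4 and 15.8 in basal TEB, 38.5 and 54.8 in luminal duct, and 54.5, 55.4 and 58.6 in luminal TEB. It was 4.59-fold higher in luminal cells of TEBs (edgeR FDR = 0.0203), and 1.86-fold in ducts without passing the threshold (edgeR FDR = 0.348). The low value of basal TEB replicate 1, the library with the highest mitochondrial share, bears on its size: without that library the log2 difference in TEBs was -1.68 and not -2.19 (edgeR FDR = 0.00051). The call was lost without luminal TEB replicate 1 or 3 (edgeR FDR = 0.0511 and 0.0569) and with the mitochondrial share as a covariate (edgeR FDR = 0.2). Over all GENCODE transcripts, exons of Ctu2 on the other strand overlap 24.6% of the exonic bases of Piezo1, and reads there cannot be assigned without strand. Per length, Piezo2 stood at 26.4 RPKM in luminal duct against 5.68 for Piezo1.

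Trpv4, a calcium channel opened by swelling, stretch and warmth, was at 85.1, 62.1 and 74.1 CPM in basal duct, 63.3, 50.7 and 63.9 in basal TEB, 1.09 and 0.905 in luminal duct and 1.43, 1.87 and 1.39 in luminal TEB. The replicates were close and the cell types far apart, with 6.19 ± 0.33 in ducts (edgeR FDR = 6.8e-07) and 5.24 ± 0.26 in TEBs (edgeR FDR = 1.5e-07). Kcnk2 (TREK-1), a potassium leak channel opened by stretch, was at 21.2, 13.8 and 16.2 CPM in basal duct, 18.5, 17.2 and 12.9 in basal TEB, and at most 0.0572 in a luminal library (edgeR FDR = 0.000137 in ducts and 2.24e-05 in TEBs). Kcnk4 (TRAAK), its relative, was lower, at 3.17, 1.79 and 5.31 CPM in basal duct and 11.8, 3.05 and 6.02 in basal TEB, with no count in luminal duct, so that it was at least 77.9-fold higher in basal duct (edgeR FDR = 0.00191). Over all GENCODE transcripts, part of the Kcnk4 exons (13.1%) is shared with Catsperz on the same strand. Among the two-pore channels not gated by stretch, Kcnk5 (TASK-2) was 3.10-fold higher in luminal than in basal ducts (edgeR FDR = 0.00808), and Kcnk16 had 3.50 to 5.12 CPM in luminal TEB and no count in basal cells.

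**Figure D4:**
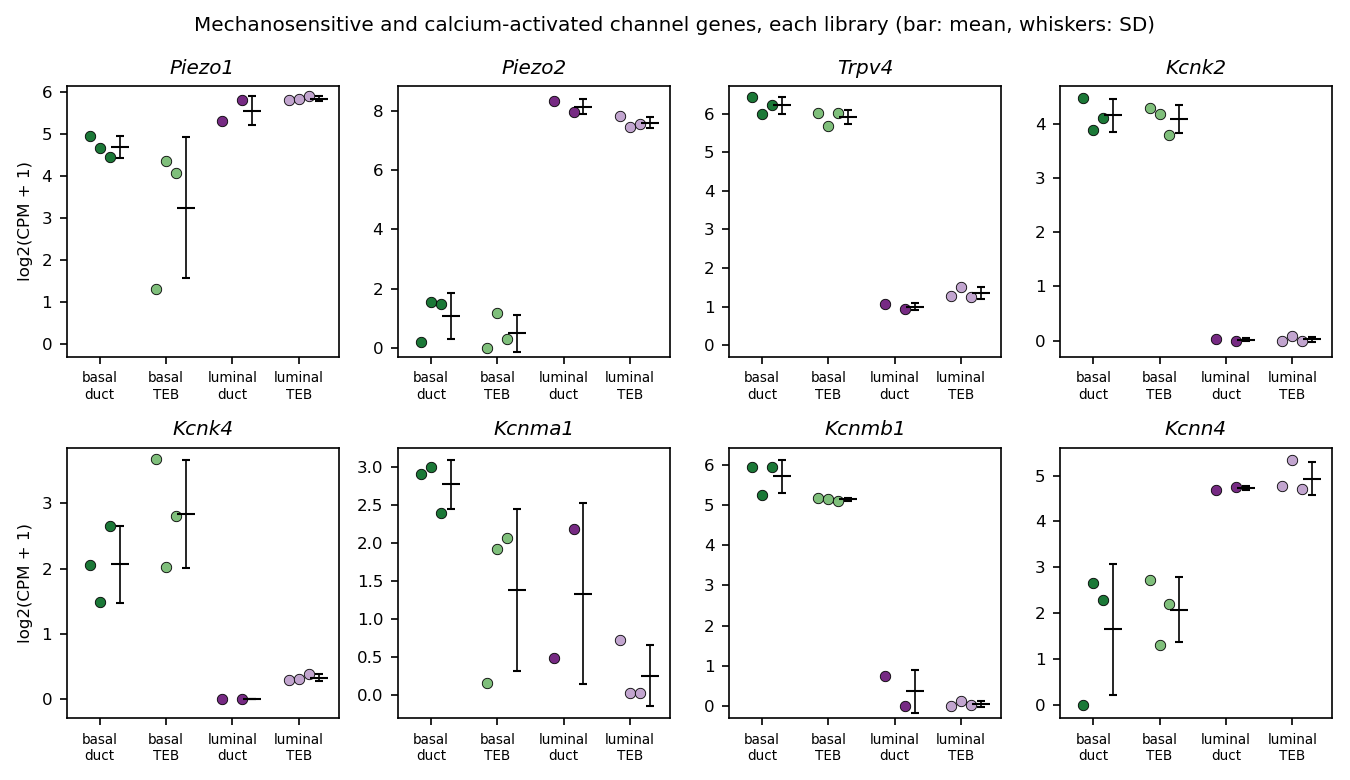
Level of 5 mechanosensitive and 3 calcium-activated channel genes as log2(CPM + 1) in each library, by group, with the mean and SD over libraries beside the points. Trpv4, Kcnk2, Kcnk4 and Kcnmb1 are high in basal groups and Piezo2 and Kcnn4 in luminal groups, and 1 basal TEB library lies far below the others for Piezo1 and Kcnma1.

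Calcium-activated potassium channels comprised 9 members, of which 8 were tested. In both structures 2 were higher in basal cells (25.0%), near the 22.3% of all genes called in ducts and 25.1% in TEBs. Both are beta subunits of the large-conductance BK channel. Kcnmb1, the beta subunit of smooth muscle, was at 60.7, 36.8 and 60.3 CPM in basal duct, 35.0, 34.4 and 33.5 in basal TEB, 0.683 and 0 in luminal duct and 0, 0.0953 and 0.0193 in luminal TEB. All basal libraries were far above all luminal ones (7.10 ± 1.00 in ducts, edgeR FDR = 0.000293). Kcnmb4 had 1.96 to 4.72 CPM in basal libraries and no count in luminal ones, at least 69.0-fold higher in basal duct and at least 182-fold in basal TEB. The pore of the same channel, Kcnma1, was low, at 6.5, 7.03 and 4.28 CPM in basal duct, 0.115, 2.80 and 3.19 in basal TEB, 0.41 and 3.54 in luminal duct and 0.65, 0.0191 and 0.0193 in luminal TEB, and had no call (edgeR FDR = 0.545 in ducts and 0.175 in TEBs). Per length, Kcnmb1 stood at 12.6 RPKM and Kcnma1 at 0.759 in basal duct. Kcnn4, the intermediate-conductance channel of secretory epithelia, was at 24.8 and 25.9 CPM in luminal duct and 26.2, 39.7 and 24.9 in luminal TEB, against 0, 5.26 and 3.85 in basal duct and 5.54, 1.47 and 3.61 in basal TEB. Its groups did not overlap, yet the 8.35-fold and 8.54-fold differences did not pass the threshold (edgeR FDR = 0.0864 and 0.0653).

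Of 22 TRP channel genes 17 were tested, and the same 3 genes were higher in basal cells and the same 2 in luminal cells in each structure. The 29.4% called was near the share of all genes, 22.3% in ducts and 25.1% in TEBs. Trpm3, a heat-activated channel of sensory neurons, was at 64.7, 37.6 and 54.6 CPM in basal duct, 230, 132 and 103 in basal TEB, 0 and 0.0411 in luminal duct, and 0.852, 0.343 and 0.173 in luminal TEB. It was the one member whose basal TEB libraries all lay above those of basal duct, by 2.97-fold, without passing the threshold (edgeR FDR = 0.122). Trpc6, a cation channel opened by diacylglycerol, was at 54.0 and 85.3 CPM in luminal duct and 130, 84.5 and 95.3 in luminal TEB, and at most 0.821 in a basal library (edgeR FDR = 1.38e-05 in ducts and 1.69e-05 in TEBs). Trpv6, an epithelial calcium uptake channel, was at 52.0, 47.3 and 54.6 CPM in basal duct, 68.7, 41.5 and 49.4 in basal TEB, 3.98 and 20.5 in luminal duct and 1.48, 3.47 and 1.75 in luminal TEB. The luminal duct pair was far apart while the 3 basal duct values were close. The call in ducts (4.19-fold, edgeR FDR = 0.0252) was lost without basal duct replicate 1 or 3 (edgeR FDR = 0.053 and 0.0576) and without luminal duct replicate 1 (log2 difference 1.32 and not 2.07, edgeR FDR = 0.0767), and without luminal duct replicate 3 the difference was 3.69. Trpm6, a magnesium channel, was at 7.10, 6.87 and 6.00 CPM in basal duct and 10.9 and 43.0 in luminal duct. Its call in ducts rested on luminal duct replicate 3, the library with 176 CPM of immune markers, since without it the log2 difference was -0.71 and not -2.01 (edgeR FDR = 0.464). It was also lost without any 1 basal duct library (edgeR FDR = 0.0528 to 0.0701). In TEBs Trpm6 was 5.14-fold higher in luminal cells (edgeR FDR = 0.00628).

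FXYD genes called between the cell types were all higher in luminal cells. These were 1 of 6 tested in ducts (16.7%) and 3 in TEBs (50.0%), where 9.71% and 11.8% of all genes were called so. Fxyd2, the gamma subunit of the pump in kidney, was at 174 and 154 CPM in luminal duct, 11.1, 10.6 and 19.5 in luminal TEB and at most 0.282 in a basal library. All luminal libraries lay above all basal ones, with a basal minus luminal log2 difference of -10.69 ± 0.88 in ducts (edgeR FDR = 6.59e-06) and a 231-fold difference in TEBs (edgeR FDR = 3.27e-05). Fxyd5 (dysadherin), a modulator of cell adhesion, was at 13.9, 16 and 16.5 CPM in luminal TEB and 0, 0.968 and 0.028 in basal TEB (46.5-fold, edgeR FDR = 0.0157, and 0.06 with the mitochondrial share as a covariate). Fxyd1 and Fxyd4 reached at most 5.92 CPM with no call, and Fxyd7 did not pass the filter. Of the CLCA genes, Clca1 had no count in basal duct and was at 32.7 and 5.72 CPM in luminal duct, at least 814-fold higher, or 242-fold without replicate 1 and 1385-fold without replicate 3. In TEBs it was 62.7-fold higher in luminal cells (edgeR FDR = 0.0167), a call lost without luminal TEB replicate 3 (edgeR FDR = 0.0571). Clca2, Clca3b and Clca4a had no call, Clca4b had no count and the pseudogene Clca4c-ps had a count in 1 library.

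The second question was which members differed between TEB and duct within a cell type. In basal cells 5 of 124 members were called, all lower in TEBs, where 1.32% of all genes were called, 0.167% higher and 1.16% lower. At an unadjusted p below 0.05 there were 4 higher and 15 lower, where 6.62% and 7.84% of all genes were. Other tools called members higher in basal TEBs, 3 by the likelihood ratio test (1.21% of all genes), 2 by DESeq2 (1.59%) and 1 by limma voom (1.08%). The 5 were Clca3a1, Clca3a2, Scn7a, Fxyd3 and Fxyd6. The median log2 fold change was -0.90 over the tested members and -0.03 over all genes, and the median of the members ran from -0.57 (without basal duct replicate 1) to -1.18 (without basal TEB replicate 2) when 1 library was left out. It was -0.58 without basal duct replicate 2, -0.69 without basal TEB replicate 1 and -0.41 with limma voom. Libraries did not overlap for 28 members lower and 1 higher in basal TEBs, against 11.9% and 8.88% of all genes (20.8% in either direction). In luminal cells 3 were called, all lower in TEBs (Cacna1g, Cacna2d1 and Fxyd2), against 1.41% of all genes, 0.639% higher and 0.771% lower. An unadjusted p below 0.05 was found for 9 higher and 14 lower, against 8.38% and 8.22% of all genes. The likelihood ratio test, DESeq2 and limma voom called 4, 5 and 2 higher, against 2.64%, 3.38% and 0.743% of all genes. Libraries did not overlap for 18 members higher and 19 lower, against 26.2% and 17.4% of all genes (43.7%). In the test of whether the TEB change differed between basal and luminal cells, 1 member was called, Clca3a2, against 0.443% of all genes, 0.0806% with a positive and 0.363% with a negative difference.

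Clca3a2 was at 561, 414 and 427 CPM in basal duct, 13.9, 36.7 and 11.4 in basal TEB, 126 and 289 in luminal duct and 134, 194 and 210 in luminal TEB. The basal TEB libraries were the lowest of all 11, and the fall from basal duct was 22.6-fold (log2 fold change -4.49 ± 0.48, edgeR FDR = 0.0015). Its luminal libraries overlapped between TEB and duct (log2 fold change -0.21, edgeR FDR = 0.866), and the basal change differed from the luminal one by -4.28 ± 0.67 (edgeR FDR = 0.0232). That call was lost with the mitochondrial share as a covariate (-3.65, edgeR FDR = 0.376) and without basal duct replicate 1, basal TEB replicate 3 or any luminal TEB library (edgeR FDR = 0.0504 to 0.0779). It was also lost with library size alone. In TEBs, Clca3a2 was thus 8.68-fold higher in luminal than in basal cells (edgeR FDR = 0.000285), while in ducts basal cells had 2.25 times the luminal level without passing the threshold (edgeR FDR = 0.105).

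Clca3a1 was at 203, 355 and 166 CPM in basal duct, 9.29, 21.7 and 10.1 in basal TEB, 21.3 and 35.2 in luminal duct and 7.60, 17.6 and 12.9 in luminal TEB. Basal duct stood above all other groups, with a fall of 17.6-fold in basal TEBs (log2 fold change -4.13 ± 0.46, edgeR FDR = 0.00179). The genes are neighbours on chromosome 3 with 19603 bases between them on mm10, at chr3:144729677-144760977 and chr3:144780581-144819623. Their transcripts share 11.6% of 80-base windows, the read length, so part of the reads of either may belong to the other. Their summed level was 593 to 769 CPM in basal duct and 21.4 to 58.4 in basal TEB. Clca3a2 held 53.8% to 73.4% of the sum in basal duct, 53.1% to 62.8% in basal TEB and 85.5% to 94.6% in the luminal libraries, so the ratio of the pair differed between cell types.

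Scn7a, described above at 325, 287 and 239 CPM in basal duct and 7.04, 10.7 and 6.13 in basal TEB, had the largest fall of the 5, 35.6-fold (log2 fold change -5.15 ± 0.51, edgeR FDR = 0.00122). Its basal TEB level was 100-fold above luminal TEB. Fxyd6, a pump modulator found in brain, was at 39.1, 48.9 and 36.9 CPM in basal duct, 1.39, 5.22 and 0.392 in basal TEB, 43.1 and 33.1 in luminal duct and 35.1, 44.9 and 43.8 in luminal TEB. Basal TEB was the one group that stood apart, 17.8-fold below basal duct (edgeR FDR = 0.0122) and 17.7-fold below luminal TEB (edgeR FDR = 0.000741). The fall from basal duct missed the threshold without basal TEB replicate 1 (-3.86, edgeR FDR = 0.0555), and the difference of its change from that in luminal cells, -4.24, did not pass it (edgeR FDR = 0.0858). Fxyd3, a pump modulator first found in mammary tumours, was at 137, 157 and 126 CPM in basal duct and 71.3, 56.2 and 49.0 in basal TEB, a 2.38-fold fall (log2 fold change -1.25 ± 0.19, edgeR FDR = 0.00766, and 0.056 without basal TEB replicate 3). Its luminal libraries showed 103 and 97.3 CPM in duct and 55.0, 70.0 and 51.9 in TEB, also without overlap, by 1.70-fold (edgeR FDR = 0.0945). In the GENCODE annotation, exons of Lgi4 on the other strand overlap 2059 of the 4850 exonic bases of all Fxyd3 transcripts (42.5%). The gene as counted had 524 bases, and the overlap with those was not measured. Lgi4 had 1035 counts in all libraries, which leave out any reads shared by both.

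These falls came beside a lower sum of basal markers (15553 to 19176 CPM in basal duct, 5342 to 8297 in basal TEB) and a lower Trp63 (461 to 478 against 318 to 403). The fibroblast sum was lower (345 to 597 against 176 to 285). Most of it was Dcn (205 to 399 against 113 to 160), and the other genes of that list overlapped between the structures. Pericyte markers were lower as well (31.2 to 61.7 against 4.56 to 25.6), with the defining gene Rgs5 at 0 to 2.82 in these 6 libraries. The part of these cells and markers in the change was not tested. Without basal duct replicate 2, the 5 genes were still called (edgeR FDR = 0.00588 to 0.0435). Other channel genes of basal cells had lower values in basal TEBs without a call: Cacna2d1 (2.98-fold, edgeR FDR = 0.125), Kcnj2 (8.44-fold, edgeR FDR = 0.179), Cacna1c (2.13-fold, edgeR FDR = 0.494), Cacna1g (1.88-fold, edgeR FDR = 0.466) and Kcnmb1 (1.53-fold, edgeR FDR = 0.702). Their libraries did not overlap between basal duct and basal TEB. Trpv4, Kcnk2, Trpv6 and Kcnip3 had close values in both structures, with log2 fold changes of -0.32, -0.07, 0.05 and 0.07.

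Promoter windows of 4 of the 5 genes that fell in basal TEBs are shown because these genes moved together. Each window spans a RefSeq start of transcription and is written 5′ to 3′ on the strand of the gene, from RefSeq on GRCm38.p6. Capitals mark CATTCC, the core bound by TEAD factors, and AGATAA, bound by GATA factors, on either strand.
Clca3a1: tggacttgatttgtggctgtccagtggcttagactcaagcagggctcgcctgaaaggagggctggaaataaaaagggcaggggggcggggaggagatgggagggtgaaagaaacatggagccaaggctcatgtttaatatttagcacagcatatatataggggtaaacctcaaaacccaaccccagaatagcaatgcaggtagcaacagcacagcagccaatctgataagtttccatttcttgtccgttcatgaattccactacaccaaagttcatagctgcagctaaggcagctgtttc
Scn7a: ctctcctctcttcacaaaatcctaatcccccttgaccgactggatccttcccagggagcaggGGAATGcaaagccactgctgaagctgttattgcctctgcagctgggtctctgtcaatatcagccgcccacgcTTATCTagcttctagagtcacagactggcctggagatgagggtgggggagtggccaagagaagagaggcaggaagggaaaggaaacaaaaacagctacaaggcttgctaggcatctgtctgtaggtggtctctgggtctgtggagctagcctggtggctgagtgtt
Fxyd3: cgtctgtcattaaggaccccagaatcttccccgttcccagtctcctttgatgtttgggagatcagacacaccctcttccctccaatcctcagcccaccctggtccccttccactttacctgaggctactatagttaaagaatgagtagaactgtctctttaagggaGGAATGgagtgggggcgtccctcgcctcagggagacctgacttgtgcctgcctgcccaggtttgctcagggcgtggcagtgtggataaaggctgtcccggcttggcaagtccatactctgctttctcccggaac
Fxyd6: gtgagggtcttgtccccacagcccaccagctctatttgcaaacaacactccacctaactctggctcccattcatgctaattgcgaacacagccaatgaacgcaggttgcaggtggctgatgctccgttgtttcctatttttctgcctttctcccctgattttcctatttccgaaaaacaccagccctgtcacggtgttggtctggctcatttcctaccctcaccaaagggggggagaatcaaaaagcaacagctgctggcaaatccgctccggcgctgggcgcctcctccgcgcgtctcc

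The windows lie at chr3:144760928-144761227 (Clca3a1, minus strand), chr2:66784861-66785160 (Scn7a, minus strand), chr7:31076648-31076947 (Fxyd3, minus strand) and chr9:45369935-45370234 (Fxyd6, plus strand). The Fxyd6 window belongs to a start inside the gene as counted, which begins at chr9:45369470. CATTCC stood in the windows of Scn7a, 188 bases before the start, and Fxyd3, 84 bases before it, and occurs in 14.7% of the 32851 mouse promoter windows. AGATAA stood in that of Scn7a, 116 bases before the start, and occurs in 11.2%. The hexamers do not overlap each other. Among all members, 134 genes had a window, 174 windows in all, of which 17.2% held CATTCC and 4.6% held AGATAA. The windows of Fxyd3 and Fxyd6 were identical at 43.0% of aligned positions, against 45.0% for the unrelated pair of Scn7a and Clca3a1. Such matches describe the letters of these windows only.

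In luminal cells the change with the most CPM was that of Fxyd2. From 174 and 154 CPM in luminal duct it was lower in all 3 luminal TEB libraries, at 11.1, 10.6 and 19.5, or 11.9-fold (log2 fold change -3.58 ± 0.62, edgeR FDR = 0.0206). The call was lost without luminal duct replicate 3 (edgeR FDR = 0.0636) and without any 1 luminal TEB library (edgeR FDR = 0.075 to 0.0929), with log2 values between -3.43 and -3.94. It was also lost with the mitochondrial share as a covariate (edgeR FDR = 0.15). Fxyd2 lies 3549 bases from Fxyd6 on chromosome 9, and the neighbours did not move together: Fxyd6 was level in luminal cells and fell in basal TEBs, where Fxyd2 was near 0. Cacna1g and Cacna2d1 were called on traces, with at most 2.14 CPM in luminal duct. In luminal duct replicates 1 and 3 the basal marker sum was 0.528% and 1.41% of its mean in basal duct, Cacna1g was 0.183% and 1.80%, and Cacna2d1 0.466% and 2.19%. The part of basal cells in the luminal duct libraries in these 2 calls was not tested, and the Cacna1g call was lost without luminal duct replicate 3 (-2.45, edgeR FDR = 0.326) and without 7 other libraries in turn (edgeR FDR = 0.0558 to 0.157). Trpv6, at 3.98 and 20.5 CPM in luminal duct and 1.48 to 3.47 in luminal TEB, just missed the threshold (edgeR FDR = 0.056).

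The pumps and channels that act with the members were compared from lists of related genes. Of the sodium-potassium pump subunits partnered by FXYD proteins, 5 of 7 were tested. The beta subunit Atp1b1 was higher in luminal cells of ducts (edgeR FDR = 0.000432) and of TEBs (edgeR FDR = 0.000296), at 45.4 to 58.7 CPM in luminal duct against 1.72 to 6.18 in basal duct. Atp1b3 was higher in basal cells of TEBs by 1.74 ± 0.39 (edgeR FDR = 0.00613). 

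All 7 genes of the epithelial and acid-sensing sodium channels were tested. Scnn1a and Scnn1b, subunits of the aldosterone-regulated channel ENaC, were higher in luminal cells in both structures. That is 28.6% called in each, near the 22.3% of all genes in ducts and 25.1% in TEBs. Of all genes, 9.71% and 11.8% were called in the luminal direction. Scnn1a was at 77.9 to 98.4 CPM in the luminal libraries and 0 to 5.37 in the basal ones (edgeR FDR = 0.00445 in ducts and 0.00665 in TEBs). Among 20 genes of calcium stores and pumps, 5 were called between cell types in ducts (25.0%) and 6 in TEBs (30.0%), near those shares of all genes. Atp2c2, a secretory pathway calcium pump, was the one called between structures, in basal cells (5.0%, against 1.32% of all genes). It was at 22.4 to 24.8 CPM in basal duct and 0.644 to 4.55 in basal TEB (log2 fold change -2.98 ± 0.53, edgeR FDR = 0.0194). Among 25 tested chloride channel and transporter genes, 4 were higher in basal and 6 in luminal cells of ducts, and 1 and 6 in TEBs. That is 40.0% and 28.0% called, against 22.3% and 25.1% of all genes, so the share in TEBs was near the background. Clcn4 was lower in basal TEBs than in basal ducts (log2 fold change -0.72 ± 0.15, edgeR FDR = 0.0485). Of 12 tested genes among other candidates for mechanical sensing, 3 were higher in basal and 1 in luminal cells of ducts, and 4 and 2 in TEBs. Those counts make 33.3% and 50.0%, against 22.3% and 25.1% of all genes. The polycystin genes Pkd1 and Pkd2 were higher in basal cells in both structures.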

How the data were processed

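The 11 libraries were RNA-seq of sorted epithelial fractions (80 bp paired reads, unstranded TruSeq kit). The authors aligned reads to mm10 and counted them with Rsubread (featureCounts) and its built-in RefSeq genes, and the deposited values are whole read counts, not normalized. They dropped a luminal duct sample with few cells. Symbols came from RefSeq (25275 of 27179 identifiers, 93.0%), and 17370 genes passed filterByExpr (minimum count 10, minimum total 15). In R 4.3.3, edgeR 4.0.16 was run with TMM scaling, 4 groups, the quasi-likelihood test and Benjamini-Hochberg adjustment at 0.05. The study's own fit, glmFit, was an alternative, as were other scalings and filters, DESeq2 1.42.0, limma 3.58.1, mitochondrial terms and left-out libraries. SE was taken from the fold change and F (its size over the root of F). A group without a count got a floor of 3 counts, for counting error only. The common biological coefficient of variation was 0.704. Replicates pool mice, so p-values measure the spread between pools. The members and lists were chosen with earlier results of these data known. Genes were named if on a list (PIEZO, CLCA, FXYD and further channel genes), called between structures or in the interaction, among the 8 largest cell type differences in each direction (called in both structures, no overlap, mean log2 CPM of at least 1), or among the 5 highest per length in a group. Scripts were tested on simulated counts. Some items are not reported here.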

Additional observations from a re-analysis of the deposited data

Results flagged for a closer look

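The change of Clca3a2 from duct to TEB differed between basal and luminal cells by -4.28 on the log2 scale in the test of that difference (edgeR FDR = 0.0232). The level was 414 CPM or more in the 3 basal duct libraries and 36.7 or less in the 3 basal TEB libraries, while the luminal libraries of both structures lay between 126 and 289.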

How the results depend on the processing

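Where 1 luminal duct library was left out, the lone one was assumed to vary like the other groups. The members called between cell types numbered 29 to 44 in ducts and 30 to 42 in TEBs when 1 library was left out. The likelihood ratio test, DESeq2 and limma voom called 50, 48 and 48 in ducts and 54, 50 and 46 in TEBs. An FDR of 0.01 left 23 and 27. For basal TEB against basal duct the count was 10 with the likelihood ratio test, 11 with DESeq2 and 11 with limma voom, and 4 to 6 without 1 library, and Clca3a1, Clca3a2 and Scn7a were called in all 22 alternatives. For luminal TEB against duct the count was 1 with library size alone, 5 without a filter, 14 with the likelihood ratio test, 15 with DESeq2, 0 with the mitochondrial share as a covariate, 5 without the 2 libraries of highest share and 1 at an FDR of 0.01, and 1 to 6 without 1 library. For the interaction it was 0, 4, 8, 8, 0, 3 and 0 under the same settings, 2 with voom, 2 with a replicate block and 0 to 5 without 1 library. Kcnip3 reversed without luminal duct replicate 1, to 3.73 in luminal TEB against duct (edgeR FDR = 0.0171) and to -3.66 in the interaction (edgeR FDR = 0.0368), since the remaining library held 0.0822 CPM. Without luminal duct replicate 3 these were -1.49 and 1.56. Cacna1g was called in 9 of 22 alternatives in luminal cells and Fxyd2 in 15. With the replicate number as a block the counts were 5, 2, 31, 37 and 2 (in luminal cells Fxyd2, edgeR FDR = 0.0601, and Cacna1g, 0.0853, were not called and Clca3a1, 0.0347, was), but only 4 of 15 same-number pairs correlated above 0.1, and 7 of 11 libraries correlated best with their own number. Library size alone moved the median of all genes by over 0.1, to -0.16, 0.42, 0.19, -0.35 and -0.63 in the 5 comparisons. The 55 members below the filter were not tested at this depth.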
